A study of Caenorhabditis elegans with 16 samples.

Results

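Glutathione S-transferases join glutathione, a small thiol peptide, to reactive and electrophilic compounds, which makes these easier to export and keeps them from attacking proteins and lipids. The nematode *Caenorhabditis elegans* carries a large family of them, most in a nematode-expanded cytosolic group (*gst* genes), with a few omega class (*gsto*) and kappa class (*gstk*) members. Several are targets of SKN-1, the worm relative of the mammalian NRF2 factor, and a fluorescent reporter of *gst-4* is a standard readout of SKN-1 activity.

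The genes described here are all those of the deposited tables whose symbol starts with *gst-*, *gstk-* or *gsto-*. There were 14 of them among 3698 genes in all, 12 in the table for 20°C, 3 in the table for heat shock and 1, *gst-39*, in both. Of 49 annotated genes of the family, 35 are in neither table and have no value here. The 12 genes in the 20°C table are 24.5% of the annotated family, where 17.8% of all genes adjusted over are in that table, and the 3 in the heat shock table are 6.12%, where the share over all genes is 9.33%. These shares have unlike bases, since some of the 49 annotated genes may not have been among those adjusted over.

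The 16 libraries came from whole worms of the N2 wild type, 4 for each of 4 groups. Fasted worms at 20°C (basal) had been kept without their bacterial food (OP50) for 24 h from the mid-L4 stage, the end of larval life, and fed worms at 20°C had not. Fasted and fed heat-shocked worms were treated likewise and then held at 35°C for 30 min. The labels give 24 h back on food before collection, while the paper's text has the worms collected straight after the fast. The time on food is therefore uncertain for every value below.

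The authors compared fasted with fed worms at each temperature, and a table lists just the genes that reached an unadjusted p under 0.05 there. Every gene described here had thus been chosen by the contrast in which it is tested, and an absent gene may have had a higher p or too few reads. Library totals, recovered from the counts and FPKM values, ran from 15859001 to 26398842 reads, and the genes in a table took 14.2% to 22.99% of them. Values are normalized counts, the reads of a gene divided by a size factor of its library. Tests are edgeR's quasi-likelihood test with Benjamini-Hochberg adjustment over all genes the authors adjusted over, with absent genes set to a p of 1. A gene is said to have risen or fallen at an adjusted p under 0.05. Nothing states that the 4 libraries of a group were separate cultures, so the spread behind each p-value may be technical.

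At 20°C, 11 of the 12 genes had higher means in fasted worms, where 62.5% of all genes in the table did, and 1, the kappa class gene *gstk-1*, had a lower mean. *gst-39* and *gst-26* rose about to the same degree, by 1.07 and 1.02 on the log2 scale, and 0 members fell. That is 2 of 12, against 2.46% of the 14982 genes adjusted over and 13.8% of the 2666 in the table. The count therefore stood near the share among genes in the table. The median log2 fold change of the 12 members was 0.85, and that of all listed genes was 0.57. At an unadjusted p under 0.05 edgeR called 11 of the 12, where 89.5% of the genes in the table passed the same bound.

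*gst-39* (Y53F4B.33) lies on chromosome II of WBcel235 from 15171151 to 15171912, a protein-coding gene of 2 exons. It had 161, 137, 214 and 147 normalized counts in fasted replicates 1 to 4, against 93.5, 55.8, 84.7 and 80.1 in fed replicates 1 to 4. The lowest fasted library lay above the highest fed library. The means were 165 ± 34.4 in fasted and 78.5 ± 16.1 in fed worms (SD, n = 4 each), which is a log2 fold change of 1.07 (SE 0.22, edgeR adjusted p = 0.037).

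*gst-26* (Y53F4B.29) lies in the same gene array, from 15163808 to 15164584 on the same strand. It had 522, 528, 764 and 628 normalized counts in fasted worms, against 320.4, 194, 296 and 395 in fed worms. Again the groups did not overlap, with fasted replicate 3 the highest library and fed replicate 2 the lowest, as for *gst-39*. The means were 611 ± 114 in fasted and 301 ± 83.1 in fed worms (SD, n = 4 each), a log2 fold change of 1.02 (SE 0.22, edgeR adjusted p = 0.043). Neither call was robust to leaving out libraries. That of *gst-39* was lost without any 1 of fasted replicates 1, 3 and 4 and fed replicates 1 to 4 (edgeR adjusted p between 0.052 and 0.11), and that of *gst-26* without any 1 of fasted replicates 1 to 4 and fed replicates 1 to 3 (edgeR adjusted p between 0.059 and 0.12).

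The omega class gene *gsto-1* (C29E4.7), on chromosome III from 7945157 to 7947018, had the largest fold change of the 12. Omega class enzymes reduce substrates through a cysteine in their active site. Fasted worms had 147, 112, 167 and 132 normalized counts, against 57.7, 19.01, 23.9 and 79.1 in fed worms. The groups did not overlap, but the fed libraries fell into a higher pair, replicates 1 and 4, and a lower pair, replicates 2 and 3. The means were 139.5 ± 23.2 in fasted and 44.9 ± 28.6 in fed worms (SD, n = 4 each), with a log2 fold change of 1.62 (SE 0.40, edgeR adjusted p = 0.067). The gene passed without fed replicate 4 (edgeR adjusted p = 0.022). It passed as well with the replicate number as a block (edgeR adjusted p = 0.034), a pairing taken from the data, not the design. It also passed with DESeq2 (DESeq2 adjusted p = 0.0037). With limma on log2 of FPKM it passed with 1 added (limma adjusted p = 0.042) but not with 0.1 added (limma adjusted p = 0.052). Leaving out any library other than fed replicate 4 did not give a call (edgeR adjusted p between 0.089 and 0.16). Nor did the other scalings tried or a mean of at least 10 counts (edgeR adjusted p between 0.060 and 0.073).

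*gst-38* (F35E8.8), on chromosome V from 15915168 to 15916079, had the most even fasted libraries, with 54.9, 52.2, 56.9 and 60.0 normalized counts, against 23.9, 17.8, 20.9 and 44.9 in fed worms. Fed replicate 4 lay well above the other fed libraries and still below every fasted one. On the log2 scale this was a difference of 1.05 (SE 0.31, edgeR adjusted p = 0.12), and 1.42 without fed replicate 4 (edgeR adjusted p = 0.022). Leaving out any other library did not give a call (edgeR adjusted p between 0.15 and 0.31).

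*gstk-1* (ZK1320.1) is the 1 member with the opposite direction. Kappa class enzymes are not cytosolic but sit in mitochondria and peroxisomes. The gene lies on chromosome II from 9656749 to 9657721 and had 280.5, 273, 345 and 307 normalized counts in fasted worms, against 416, 352, 533 and 456 in fed worms. Every fasted library was below every fed library, the nearest being fasted replicate 3 and fed replicate 2. The log2 fold change was -0.54 (SE 0.17, edgeR adjusted p = 0.13), so that the gene did not pass.

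Of the remaining members with values by library, *gst-4* (K08F4.7), the SKN-1 readout gene on chromosome IV from 10142162 to 10143101, had 341, 229.6, 407 and 464 normalized counts in fasted worms, against 138, 221, 304 and 240.3 in fed worms. Fasted replicate 2 lay among the fed libraries and fed replicate 1 far below the others. It had a log2 fold change of 0.67 (SE 0.27, edgeR adjusted p = 0.24). The gene overlaps *dhs-12* on the same strand, and *dhs-12* is in neither table.

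*gst-36* (R07B1.4), on the X chromosome from 9861650 to 9862955, had 444, 375, 567 and 437 normalized counts in fasted worms, against 322, 233, 356 and 399 in fed worms. The groups overlapped through fasted replicate 2 and fed replicate 4, with a log2 fold change of 0.48 (SE 0.20, edgeR adjusted p = 0.26). *gst-2* (K08F4.6), the neighbor of *gst-4*, was close to the limit of detection, with 3 to 19 reads per library in fasted and 2 to 6 in fed worms. Its normalized counts were 6.77, 3.27, 18.3 and 17.3 in fasted worms, against 1.99, 3.56, 5.98 and 3.91 in fed worms, and its log2 fold change of 1.53 had a standard error of 0.61 (edgeR adjusted p = 0.24).

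The other 4 genes, *gst-6*, *gst-43*, *gst-27* and *gst-41*, had log2 fold changes between 0.44 and 1.33 and adjusted p-values between 0.27 and 0.39 from edgeR. *gst-43* was the 1 gene among them whose groups did not overlap, with 117 to 156 normalized counts in fasted and 80.8 to 116 in fed worms. *gst-6* had 78.9 to 121 in fasted and 59.7 to 84.7 in fed worms. *gst-41* had the widest spread, 4.35 to 73.2 in fasted and 5.94 to 20.5 in fed worms, both lowest values being from replicate 2.

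Over the 12 genes, the fasted and fed libraries did not overlap for 6, where 52.9% of all genes in the table had groups that did not overlap. All fasted libraries lay above all fed ones for 5 of the 12, where the share of all genes in the table was 33.7%. Set against each other by replicate number, fasted and fed libraries differed in the same direction in all 4 pairs for 10 of the 12 genes, where 87.1% of all genes in the table did so. *gst-2* and *gst-41*, each higher in fasted worms in 3 of 4 pairs, were the other 2.

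**Figure D1:**
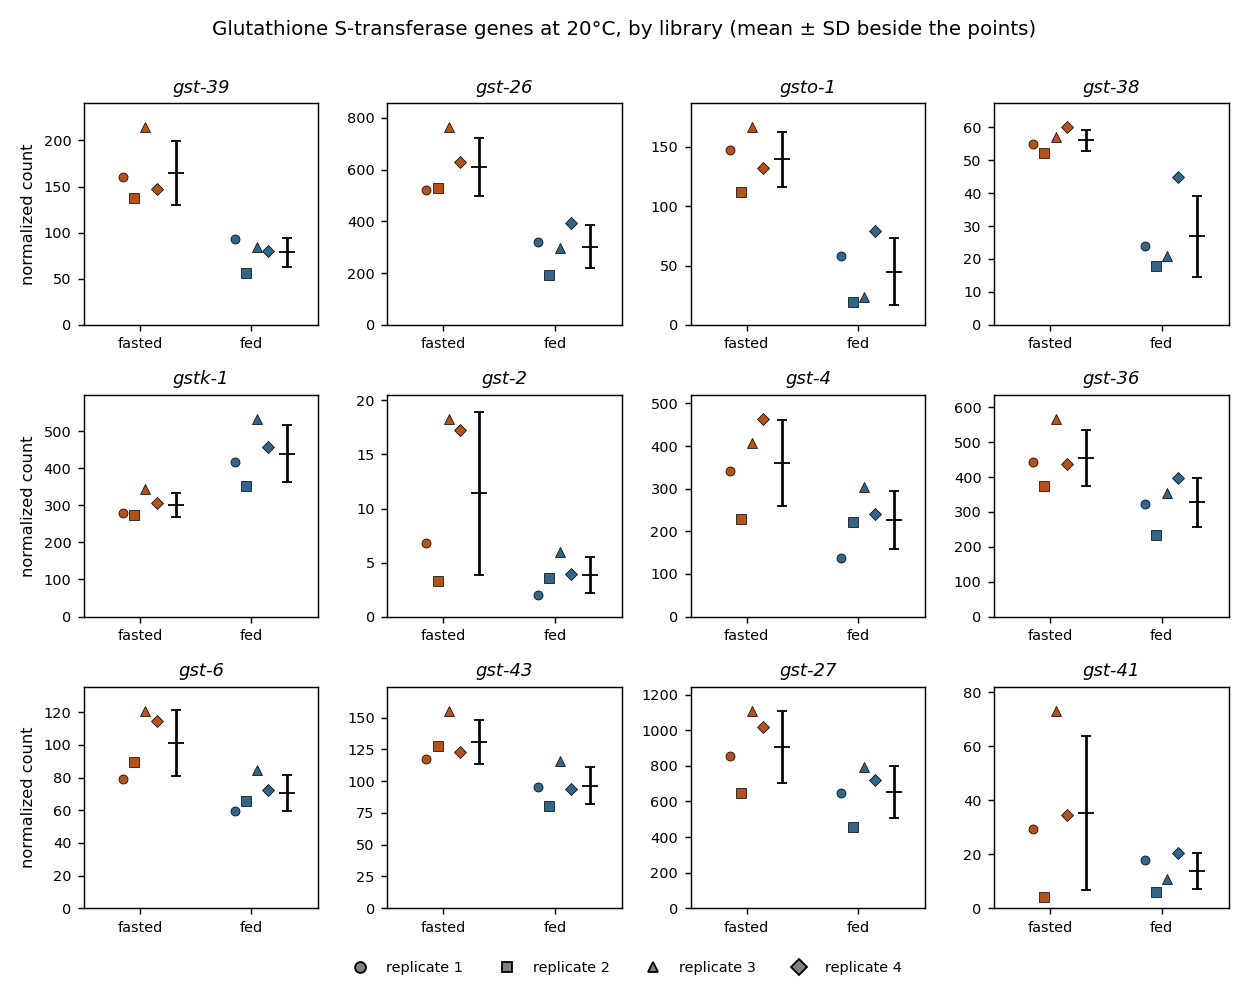
Normalized counts (linear y axes from 0, 1 panel per gene, in order of p from edgeR) of the 12 glutathione S-transferase genes in the 20°C table, fasted left and fed right, with the mean ± SD of 4 libraries beside the points and the marker giving the replicate number. In 6 panels the fasted and fed points do not overlap, and in the panel of gstk-1 the fasted points are the lower ones.

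Levels compared per length show how unlike the members were in abundance. In FPKM, *gst-27* was the highest of the 12 in both groups, at 62.6 ± 15.03 in fasted and 45.6 ± 9.57 in fed worms, and *gst-26* came next in fasted worms at 43.0 ± 9.11, against 21.4 ± 5.5002 in fed worms. *gst-36*, *gst-4* and *gstk-1* had 31.2 ± 6.34, 23.1 ± 6.49 and 20.9 ± 2.75 FPKM in fasted worms, and neighbors in this order overlap within their SDs. In fed worms *gstk-1* was second at 30.8 ± 4.98, above *gst-36* at 22.7 ± 4.42 and *gst-26*. *gst-2* was the lowest of all, with 0.891 ± 0.597 FPKM in fasted and 0.304 ± 0.128 in fed worms.

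Much of the family lies in gene arrays. A stretch of chromosome II from 15163817 to 15185389 holds 9 annotated members, *gst-26*, *gst-27*, *gst-28*, *gst-29*, *gst-39*, *gst-31*, *gst-32*, *gst-34* and *gst-35*, and 3 of these, *gst-26*, *gst-27* and *gst-39*, were in the 20°C table. A second stretch of 9 members on the same chromosome, from 13608154 to 13630887, had 0 listed genes. On chromosome IV, *gst-2* and *gst-4* but not *gst-3* were in the table. Neighbors of an array can be alike in sequence, and how the authors treated reads that fit several of them is not stated in the methods or labels, so the separate values of *gst-26*, *gst-27* and *gst-39* are uncertain to that extent.

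*gst-27* (Y53F4B.30), from 15164885 to 15165726, ends 300.0 bases from *gst-26*, and its values are set beside that gene's after both had been seen. It had 856, 645, 1109.9 and 1016 normalized counts in fasted worms, against 649.7, 454, 792 and 718 in fed worms. Fasted replicate 2 lay below 3 of the fed libraries. The log2 fold change was 0.47 (SE 0.21), less than the 1.02 of *gst-26*, with an adjusted p of 0.29 from edgeR and of 0.043 with the replicate number as a block. The reads of *gst-26* per read of *gst-27*, a ratio within each library that no scaling touches, were 0.609, 0.818, 0.689 and 0.619 in fasted worms, against 0.493, 0.427, 0.374 and 0.550 in fed worms. The groups did not overlap in this ratio. As the pair was chosen for its difference, no test is given.

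With the replicate number as a block, edgeR called 4 of the 12 members, *gst-26*, *gst-39*, *gsto-1* and *gst-27*, all higher in fasted worms, and the share called was then 4.58% of all 14982 genes and 25.7% of those in the table. DESeq2 called 5, adding *gst-38*, *gsto-1* and *gstk-1* to the first pair, where it called 5.83% of all genes and 32.8% of those in the table. Size factors taken over the genes in the table alone lowered the median log2 fold change of those genes by 0.39, and TMM factors by 0.19. Under both, *gst-26* and *gst-39* no longer passed and *gstk-1* was the 1 member called, lower in fasted worms, while all 12 genes kept their direction. These factors rest on genes chosen by this same contrast, 62.5% of them higher in fasted worms. Scaled by library reads alone, *gst-26* and *gst-39* still passed.

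**Figure D2:**
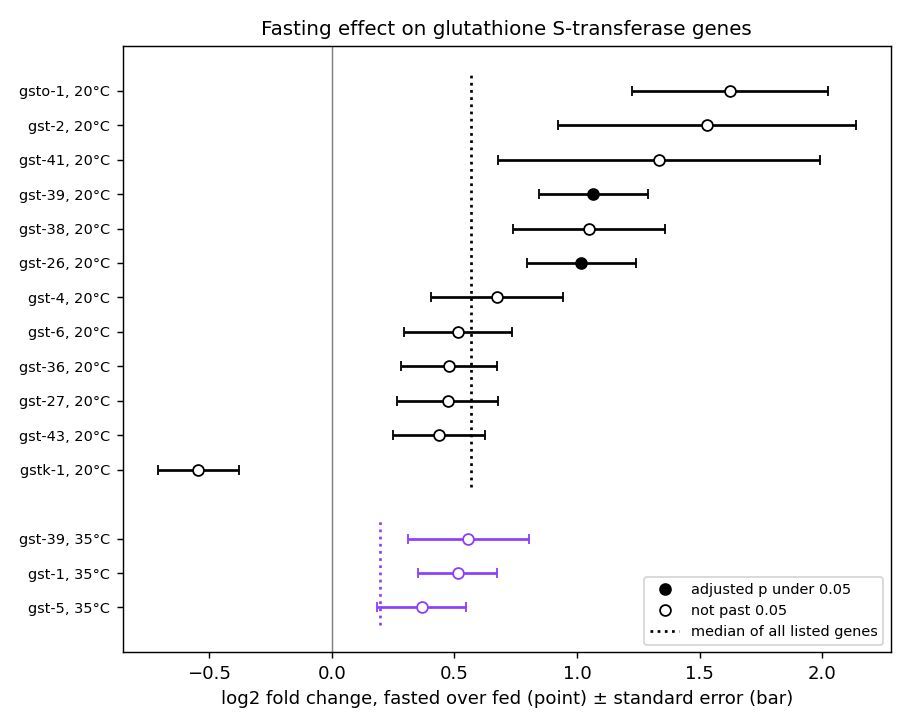
Log2 fold changes, fasted over fed (x axis), with bars of 1 standard error for the 12 genes at 20°C (black) and the 3 after heat shock (purple). Filled points passed an adjusted p under 0.05, which holds for gst-39 and gst-26 at 20°C, and dotted lines give the medians of all genes in each table, 0.57 at 20°C and 0.20 after heat shock.

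Some libraries were high or low for most members. Of the 11 genes that were higher in fasted worms, fasted replicate 3 was the highest fasted library for 9 and fasted replicate 2 the lowest for 8, with fasted replicate 1 the lowest for the other 3. Over all 1667 such genes in the table these shares were 42.0% and 53.6%. Among fed libraries, replicate 2 was the lowest for 8 of the 11 genes, where the share over all such genes was 42.8%, while the highest was replicate 3 for 5 genes, replicate 4 for 5 and replicate 1 for 1. Averaged over the 11 genes, fasted replicate 2 had a mean centered log2 level of -0.093 and the other fasted libraries 0.36 to 0.88, against -0.87 to -0.10 in fed libraries. Fasted replicate 2 thus stood just above fed replicate 4 on this mean.

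**Figure D3:**
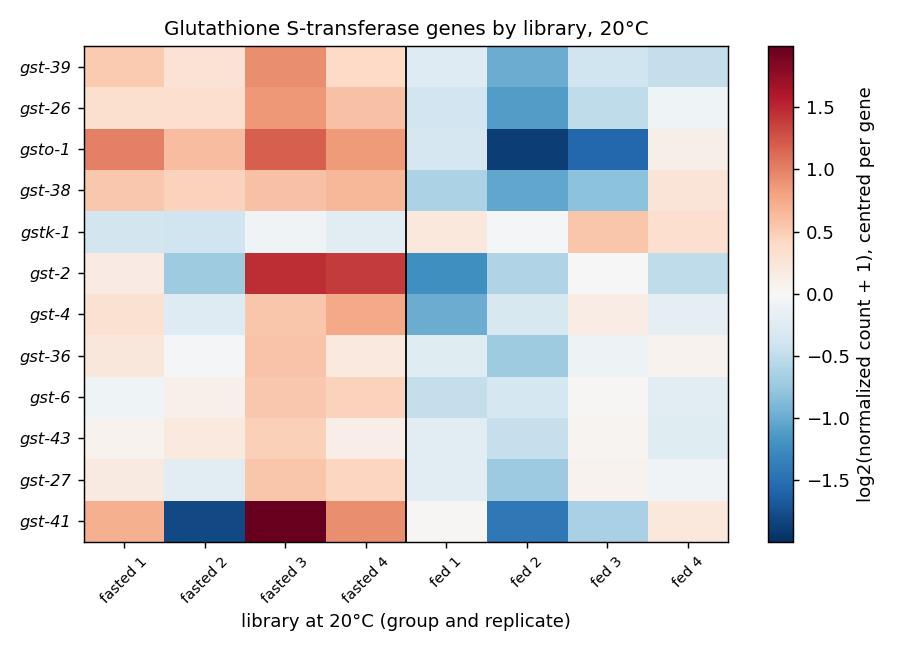
Log2 of the normalized count plus 1, centered on each gene's mean over the 8 libraries at 20°C (color), for the 12 genes (rows, in order of p from edgeR) and the libraries (columns, fasted replicates 1 to 4 left of the line, fed replicates 1 to 4 right). Fasted replicate 3 is the highest fasted column for most genes, replicate 2 is low in both groups, and gstk-1 is lower in the fasted columns.

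Gene length and most listed tissue markers went with the direction of these genes. The members are short, 658 to 1191 bases, and short genes were more often higher in fasted worms. Of all genes listed at 20°C, 62.5% were higher in fasted worms, and 74.9% and 71.8% in the length groups of 531 to 742 and 743 to 940 bases, where 11 of the 12 members fall. The median log2 fold changes of all genes in these length groups were 0.79 and 0.68. Of 9 intestine markers 4 were in the table and all 4 were higher, with summed normalized counts of 15455 to 16373 in fasted and 7421 to 10485 in fed worms, and of these *act-5*, an actin of the intestinal brush border, and *ifb-2*, an intestinal filament gene, rose. Of 6 hypodermis markers 4 were in the table, 3 higher and 1 lower, with sums of 7761 to 11382 in fasted and 2234 to 4340.4 in fed worms, and *col-19*, an adult cuticle collagen gene, and *elt-3*, a GATA factor gene, rose. Of 5 body wall muscle markers 3 were listed, all higher, and 0 passed (3 at an unadjusted p under 0.05 from edgeR, 2 with the replicate block), with sums of 21412 to 37100 in fasted and 12105 to 23178 in fed worms. Of 6 neuron and 5 sperm markers 2 and 1 were listed, all higher, and 0 passed (3 at an unadjusted p under 0.05 from edgeR). None of the pharynx, germline and oocyte markers was in the table. The sums cover only markers that this same contrast had put in the table, so their separation was partly set by that choice. In whole worms more cells of a type and more RNA per cell cannot be told apart, and the part of tissue makeup or gene length in the values above was not tested.

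Some genes that work with glutathione S-transferases were in the 20°C table, which held 17.8% of all genes adjusted over. Of 12 genes that supply or recycle glutathione 2 were in it, *cth-2*, a cystathionine gamma-lyase gene of cysteine synthesis, with a log2 fold change of 0.34, and *T03D8.6*, with 0.33, and neither passed (edgeR adjusted p = 0.29 and 0.35). The rate-limiting synthesis gene *gcs-1*, itself a SKN-1 readout, was in neither table. Of 8 MRP genes, whose pumps export glutathione conjugates, *mrp-1* and *mrp-7* were in the table with log2 fold changes of 0.45 and -0.45 and did not pass (edgeR adjusted p = 0.27 and 0.24). None of 10 genes of the SKN-1 pathway, of 6 SKN-1 readout genes outside the family, of 8 superoxide dismutases and catalases and of 3 glyoxalases was in it.

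Of 23 genes of glutathione peroxidases, peroxiredoxins, thioredoxins and glutaredoxins, 3 were in the table, all glutathione peroxidase genes, which use glutathione to reduce peroxides, and all higher in fasted worms. *gpx-5* averaged 870.0 ± 263 normalized counts in fasted and 377 ± 132 in fed worms (SD, n = 4 each), a log2 fold change of 1.21 (edgeR adjusted p = 0.058, 0.0082 with the replicate block). *gpx-1* had a log2 fold change of 0.59 (edgeR adjusted p = 0.095) and *gpx-7* of 0.93 (edgeR adjusted p = 0.15, 0.022 with the replicate block). So 0 of the 3 passed without the block (3 at an unadjusted p under 0.05 from edgeR).

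The tyrosine breakdown pathway contains a step that zeta class glutathione S-transferases carry out, maleylacetoacetate isomerization. Of 5 genes of its other steps, 4 were in the table, all higher in fasted worms, and 3 rose. *hpd-1*, the hydroxyphenylpyruvate dioxygenase gene, averaged 3363 ± 291 normalized counts in fasted and 2038 ± 288 in fed worms (SD, n = 4 each), a log2 fold change of 0.72 (SE 0.12, edgeR adjusted p = 0.015). *tatn-1*, the tyrosine aminotransferase gene, rose by 0.92 (SE 0.19, edgeR adjusted p = 0.036) and *fah-1*, the fumarylacetoacetate hydrolase gene, by 0.50 (SE 0.11, edgeR adjusted p = 0.045). Of all genes adjusted over 1.92% rose, and 10.8% of those in the table did, but this list was chosen with earlier results of these data known, and its 3 of 5 is a description. Each of the 3 lost its call on leaving out 1 library or another, with edgeR adjusted p-values of up to 0.058, 0.12 and 0.14. *gst-42*, a zeta class gene, was in neither table. Whether any listed member also belongs to this class was not examined.

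After heat shock only 3 members were in the table, *gst-1*, *gst-39* and *gst-5*, all with higher means in fasted than in fed heat-shocked worms, and 0 of them passed. edgeR called 0 of all 15456 genes in this comparison (0%), and 2 of the 3 members had an unadjusted p under 0.05 from edgeR, where 78.5% of the 1442 genes in the table did. DESeq2 and limma called 0 of the 3 as well, where DESeq2 called 3.54% of the genes in the table. The median log2 fold change of the 3 was 0.51, and that of all listed genes was 0.20. Of all genes listed here, 53.4% were higher in fasted worms, and 53.8% to 79.9% in the length groups that hold the 3 members. The median log2 fold changes of all genes in these length groups ran from 0.22 to 0.35. Of the cell type markers, 1 for intestine, 3 for hypodermis and 2 for neurons were listed here and 0 passed (5 at an unadjusted p under 0.05 from edgeR). The intestine marker *pept-1* and the hypodermis markers *dpy-7* and *nhr-25* had log2 fold changes of -0.77, -2.66 and -0.91, and *col-19* and both neuron markers had higher means in fasted worms.

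*gst-1* (R107.7), a pi class gene on chromosome III from 9058904 to 9060183, was by far the most abundant of the members listed after heat shock. It had 595 ± 135 FPKM in fasted and 421 ± 33.1 FPKM in fed heat-shocked worms (SD, n = 4 each). Its normalized counts were 9581, 10154, 11483 and 6319.6 in fasted replicates 1 to 4, against 7619, 6006, 6539.9 and 6118 in fed replicates 1 to 4. Fasted replicates 1 to 3 lay above all fed libraries, and fasted replicate 4 lay among the fed ones. The log2 fold change was 0.51 (SE 0.16, edgeR adjusted p = 0.51; exact permutation test, two-sided, p = 0.086). Without fasted replicate 4 it was 0.66, still short of the threshold (edgeR adjusted p = 0.083).

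*gst-5* (R03D7.6), a gene linked with the breakdown of the lipid peroxidation product hydroxynonenal, lies on chromosome II from 10950350 to 10951604, overlapping *nos-1* on the opposite strand. It had 233, 239, 238 and 186 normalized counts in fasted worms, against 167, 135, 208 and 186 in fed worms. The first 3 fasted libraries were nearly level and above all fed libraries, while fasted replicate 4 was level with fed replicate 4. Its log2 fold change came to 0.37 (SE 0.18, edgeR adjusted p = 0.83).

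*gst-39* had 137, 150.4, 179.7 and 98.3 normalized counts in fasted heat-shocked worms, against 125, 92.3, 77.2 and 88.7 in fed heat-shocked worms. The groups overlapped through fasted replicate 4 and fed replicate 1. On the log2 scale the difference was 0.56 (SE 0.25, edgeR adjusted p = 0.66). Fasted replicate 4 was the lowest fasted library for all 3 members, and for 75.6% of all 770 genes in this table that were higher in fasted worms.

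*gst-39* is the 1 member whose response to heat can be read, since it is in both tables. The tables were normalized separately, so its reads were scaled to the total reads of each library (CPM). It had 7.36 ± 1.72 CPM in fasted and 5.04 ± 0.893 in fed heat-shocked worms, and 8.46 ± 2.01 in fasted and 4.07 ± 0.826 in fed worms at 20°C (SD, n = 4 each). Fasted libraries ranged from 5.22 to 9.36 CPM after heat shock and from 6.98 to 11.4 at 20°C, and fed libraries from 4.16 to 6.27 after heat shock and from 2.96 to 4.92 at 20°C, so that both pairs overlapped.

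The heat effect on *gst-39* was a log2 fold change of -0.20 in fasted worms (SE 0.25, edgeR adjusted p = 0.71 over the 410 genes in both tables) and of 0.31 in fed worms (SE 0.26, edgeR adjusted p = 0.53). Of the 410 genes, 18.0% changed with heat in fasted worms and 5.85% in fed worms. The fasting effect differed between 35°C and 20°C by -0.51 on the log2 scale, with a 95% interval from -1.21 to 0.20 (edgeR adjusted p = 0.998), where 4.63% of the 410 genes passed and the median difference was -0.14. These data therefore show neither a smaller nor an equal fasting effect on *gst-39* after heat shock.

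**Figure D4:**
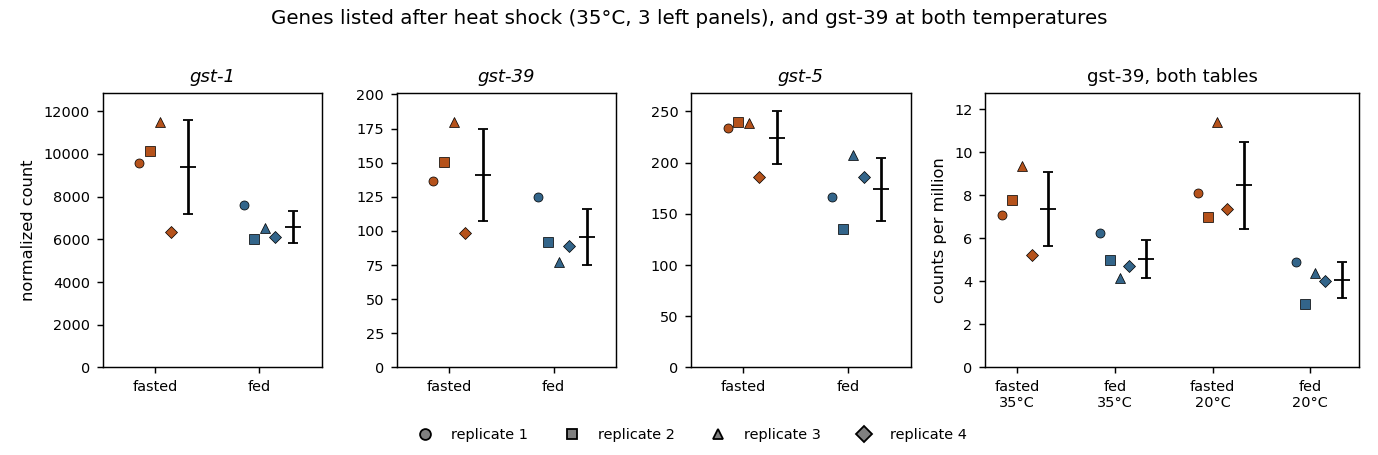
Normalized counts (3 left panels, linear axes from 0) of gst-1, gst-39 and gst-5 in fasted and fed heat-shocked worms, and gst-39 in CPM in all 4 groups (right panel), with the mean ± SD of 4 libraries beside the points and the marker giving the replicate number. In each left panel 3 fasted libraries lie above all fed libraries and fasted replicate 4 among them, and in the right panel the groups at 35°C overlap with those at 20°C.

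Some genes that work with the family were also in the heat shock table, which held 9.33% of all genes adjusted over. Of 23 peroxidase, peroxiredoxin, thioredoxin and glutaredoxin genes 4 were in the table, *glrx-10*, *trx-4*, *gpx-7* and *gpx-3*, with higher means in fasted worms and log2 fold changes from 0.23 to 0.77. The glutaredoxin gene *glrx-10* averaged 2004 ± 268 normalized counts in fasted and 1597 ± 148 in fed heat-shocked worms (SD, n = 4 each, log2 fold change 0.33, edgeR adjusted p = 0.51). Of the SKN-1 pathway, *pmk-1*, the p38 kinase gene, and *cul-4*, a ubiquitin ligase scaffold gene, had log2 fold changes of -0.41 and -0.15. *mrp-4* had one of -0.23, *tatn-1* of 0.99 and the superoxide dismutase gene *sod-5*, with few reads, of 2.05. None of these genes passed (adjusted p from edgeR between 0.51 and 0.80). No gene of glutathione supply, no SKN-1 readout gene outside the family and no glyoxalase gene was in this table, and neither was *gst-4*.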

How the data were processed

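RNA was measured in 16 libraries of whole N2 worms, 4 per group. Per the labels and the methods, the authors used HISAT2 2.0.5 to align read pairs to WBcel235, then featureCounts 1.5.0-p3 for raw counts per gene. The deposited signal values are the authors' normalized counts (count over a DESeq2 size factor). The deposited FPKM values are counts per 1000 bases of gene and 1000000 library reads. The authors' log2 fold change and p-value columns (DESeq2, adjusted) were not used, except that p and adjusted p gave the number of genes adjusted over, 14982 and 15456. The DESeq2 version and whether strand was kept are not given in the sources used here.

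The reads of each library were recovered from count, FPKM and the gene length that the tables also give. Counts of all listed genes were tested with edgeR 4.0.16 (R 4.3.3), with the authors' size factors within a temperature and library reads across temperatures. Single values were compared by exact permutation in Python 3.11.15 (numpy 2.4.6). Symbols came from RefSeq by sequence name for 2638 genes at 20°C and 1418 after heat shock. The fits were first tested on simulated data in which 200 genes were changed.

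The members and lists were chosen with earlier results of these data known. Values by library are given for members that passed, that are in both tables, or that had one of the 8 smallest p per table. *gst-27*, *gst-43*, *gst-6* and *gst-41* fall outside this rule, and the values by library of *gst-27* were added after they had been seen. The alternatives tried were DESeq2 1.42.0, log2 values of FPKM plus 1 or plus 0.1 in limma 3.58.1, TMM or DESeq2 size factors over listed genes, library reads alone, a mean of at least 10 counts, a replicate block, adjustment over listed genes, a fold of at least 1.5 and each library left out. At 20°C the deviations from the group mean of same-numbered fasted and fed libraries had correlations of 0.18, 0.14, 0.36 and 0.12 over 2459 genes, each above the bound of 0.1, and the numbers were taken as pairs from the data, not the design, although fasted replicate 2 correlated best with fed replicate 1, at 0.31. No sequences were printed.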

Additional observations from a re-analysis of the deposited data

Results flagged for a closer look

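*gst-5* in fasted heat-shocked replicate 4 had 186 normalized counts, while the other 3 fasted libraries lay between 233 and 239, a gap of 0.888 of the group's range and past Dixon's critical value. It was the 1 such value among 30 groups of 4 libraries checked, where chance gives about 1 in 20. The same library was the lowest fasted one for *gst-1* and *gst-39*.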

How the results depend on the processing

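No member turned direction under any alternative run. At 20°C the main fit called 2 members and 368 genes in all. With limma, 3 members and 385 genes were called with a pseudocount of 1, and 2 and 390 with one of 0.1. DESeq2 called 5 and 874, the replicate block 4 and 686, size factors by DESeq2 over listed genes 1 and 746, TMM 1 member, adjustment over the listed genes alone 9 and 2179, and leaving out 1 library 0 to 3 and 107 to 471. Calls higher in fasted worms made up 78.3% in the main fit, 50.5% with TMM and 19.2% with size factors by DESeq2 over those genes. Adjustment over the listed genes alone leaves out genes that had a higher p in the same contrast. Its larger counts at either temperature follow from that choice.

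After heat shock 0 members and 0 genes were called. DESeq2 called 51 genes, limma 1 with a pseudocount of 1 and 2 with one of 0.1, and adjustment over the listed genes 1 member, *gst-1*, and 470 genes, while leaving out 1 library gave 0 in each case. The replicate block also gave 0, and same-numbered libraries correlated at 0.30, 0.087, 0.31 and 0.34, so the numbers were not taken as pairs there. For *gst-39*, leaving out 1 library gave heat effects of -0.34 to -0.024 in fasted and 0.18 to 0.41 in fed worms and a difference of -0.64 to -0.33, with no call in any of them. *gst-2* could not be tested with a mean of at least 10 counts. Few reads limit *gst-2* and *gst-41*. The block changed no call other than those of *gsto-1* and *gst-27* among the members. Apart from the adjustment over the listed genes, the cause of these shifts was not tested.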
